A study of Homo sapiens and Homo sapiens
Mus musculus with 19 samples.

Results

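The 50 genes described here were human genes of the cell cycle and of mitosis, chosen by symbol from the 57820 genes of the human count table. All 50 were found once each, and all 50 passed the filter on low values. They were read in 4 groups of SK-N-Be2c samples. SK-N-Be2c is an established human neuroblastoma (NB) cell line that carries an amplified MYCN gene. In sgTWIST1 cells the TWIST1 gene, which encodes a transcription factor of embryonic development, had been edited by CRISPR/Cas9, and Control cells kept it unedited. The cell groups held 3 Control and 3 sgTWIST1 samples grown in culture, which the labels call clones. The tumor groups held 4 Control and 4 sgTWIST1 tumors (ortho_1), grown from Control or sgTWIST1 cells (500000 per mouse by the labels' growth protocol) after injection into the left adrenal gland of athymic Swiss nude mice, and taken at about 1000 mm3. Each clone was sequenced in 2 batches, except sgTWIST1 clone 3 with 1, and the batches of a clone were summed. The labels do not say whether several tumors came from the same clone, so p-values measure the spread between these samples. By the labels, RNA kit, RNA input and sequencing lanes differed between cells and tumors together with growth in the mouse, and these cannot be told apart.

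A cell divides by passing through ordered phases. D-type cyclins with CDK4 and CDK6, followed by cyclin E with CDK2, phosphorylate the RB protein in G1 and thereby release E2F factors, which switch on genes for DNA replication. Later, B-MYB (MYBL2) and FOXM1 act with the MuvB complex on genes for mitosis, many of which carry a CHR element and CCAAT boxes near their start site, whereas replication genes often carry E2F sites. In neuroblastoma, high expression of these genes is a usual companion of MYCN amplification and of fast growth.

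RefSeq (GRCh38.p14) held a promoter at the 5′ end of the gene for 37 of the 50 genes. The 5 sequences below are the 250 bases before the start site, 5′ to 3′ on the strand of the gene. TOP2A (chr17:40417897-40418146, minus strand) and PLK1 (chr16:23678639-23678888, plus strand) are shown as mitotic genes, E2F1 (chr20:33686386-33686635, minus strand) and PCNA (chr20:5126623-5126872, minus strand) as genes of the G1/S step, and CDK6 (chr7:92836574-92836823, minus strand) because its levels followed a pattern of its own. Capitals mark the letters TTTGAA (CHR), CCAAT, and, as E2F-type letters, TTTCGCG, or else TTTGGCG, or else TTCCCGC, on either strand.
TOP2A: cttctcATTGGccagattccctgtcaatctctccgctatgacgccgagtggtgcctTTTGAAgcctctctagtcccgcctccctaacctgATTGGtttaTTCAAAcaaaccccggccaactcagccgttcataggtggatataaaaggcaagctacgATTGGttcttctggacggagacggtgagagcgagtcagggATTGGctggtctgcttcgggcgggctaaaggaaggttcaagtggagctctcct
PLK1: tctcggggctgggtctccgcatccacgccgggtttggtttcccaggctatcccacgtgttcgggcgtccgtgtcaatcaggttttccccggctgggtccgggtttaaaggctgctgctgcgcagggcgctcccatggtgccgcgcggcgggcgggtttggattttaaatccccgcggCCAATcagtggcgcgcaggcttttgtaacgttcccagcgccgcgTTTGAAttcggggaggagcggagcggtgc
E2F1: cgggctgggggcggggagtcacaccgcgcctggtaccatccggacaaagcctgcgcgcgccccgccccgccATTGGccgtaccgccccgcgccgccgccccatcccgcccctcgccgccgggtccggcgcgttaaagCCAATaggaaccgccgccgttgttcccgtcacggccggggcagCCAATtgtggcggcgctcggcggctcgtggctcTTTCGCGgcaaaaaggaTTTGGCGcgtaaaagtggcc
PCNA: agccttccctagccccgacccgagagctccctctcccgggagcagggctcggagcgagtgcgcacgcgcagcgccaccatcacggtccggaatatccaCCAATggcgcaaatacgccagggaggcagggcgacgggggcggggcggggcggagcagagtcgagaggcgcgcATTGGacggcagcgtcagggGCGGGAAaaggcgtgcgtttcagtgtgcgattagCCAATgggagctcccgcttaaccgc
CDK6: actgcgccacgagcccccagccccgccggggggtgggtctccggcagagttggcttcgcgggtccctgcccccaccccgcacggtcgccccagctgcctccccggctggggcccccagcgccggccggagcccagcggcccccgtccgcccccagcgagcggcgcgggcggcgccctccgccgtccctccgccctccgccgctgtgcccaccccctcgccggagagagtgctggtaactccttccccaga

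The TOP2A window held TTTGAA 2 times and CCAAT 4 times, and the PLK1 window held each once. The E2F1 window held CCAAT 3 times and E2F-type letters 2 times, and PCNA held CCAAT 3 times and E2F-type letters once. CDK6 held none of these letters, and neither did MCM2, CENPE, CDK4, CCNE1 and MYBL2. Over all 37 promoters, TTTGAA was present in 11 (29.7%, against 13.8% of all 24885 RefSeq promoters), CCAAT in 25 (67.6% against 33.4%) and E2F-type letters in 16 (43.2% against 7.9%). The E-box letters CAGATG or CATATG, which TWIST1 is known to bind, were present in 3, namely MCM6, CENPE and CDC25C (8.11% against 14.6%). E2F-type letters stood in 6 of the 7 promoters of the licensing and clamp group and in 0 of the 5 promoters of mitotic kinases, checkpoint and destruction genes, of which 3 held TTTGAA. These are counts of letters in a short window, not of bound sites. No entry was at hand for AURKA, AURKB, BIRC5, CCND1, CCND3, CCNE2, CDK2, FOXM1, MCM4, MCM5, RB1, TPX2 and UBE2C.

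Human counts per sample ran from 21695694 to 45789590 in cells and from 21426499 to 49990985 in tumors. The lowest count of any of the 50 genes in any sample was 113. TWIST1 itself was measured at 68.0, 73.5 and 62.0 CPM (counts scaled to library size) in the Control clones and at 33.8, 33.2 and 22.8 in the sgTWIST1 clones. In tumors it was 89.6, 104, 85.0 and 89.3 CPM in Control and 48.6, 45.5, 24.9 and 35.1 CPM in sgTWIST1. The groups did not overlap in either setting (exact permutation test, two-sided, p = 0.1 for cells, the smallest that 3 against 3 allows, and p = 0.0286 for tumors). The total behind each CPM was the summed count of the 10889 genes tested, scaled by TMM. TH, the first enzyme of catecholamine synthesis and a marker of adrenergic cells, was at 0.239 to 0.542 CPM in the sgTWIST1 clones.

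Per exon length, PCNA, the sliding clamp of DNA polymerases, had the highest mean level of the 50 genes in Control tumors, at 239.7 ± 45.6 RPKM (SD, n = 4), followed by TOP2A at 214.4 ± 36.8 RPKM. These neighbours overlapped: PCNA ranged from 196 to 286 RPKM and TOP2A from 186 to 268 RPKM over the Control tumors. CCND3 (4.62 ± 0.87 RPKM), CDC25C (4.91 ± 0.75 RPKM) and CCNE1 (5.83 ± 0.94 RPKM) were at the other end, and their ranges also overlapped. Summed over all 50 genes, levels were 3157, 1140 and 2561 RPKM in Control clones 1, 2 and 3 and 2798, 2454 and 2420 RPKM in the sgTWIST1 clones. In tumors the sum was 2715, 2585, 2934 and 3239 RPKM in Control and 2179, 2071, 1886 and 2054 RPKM in sgTWIST1. Every Control tumor lay above every sgTWIST1 tumor, whereas in cells the Control clones lay on both sides of the sgTWIST1 clones. In bulk RNA, fewer cycling cells and less of these RNAs per cell cannot be told apart.

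**Figure D1:**
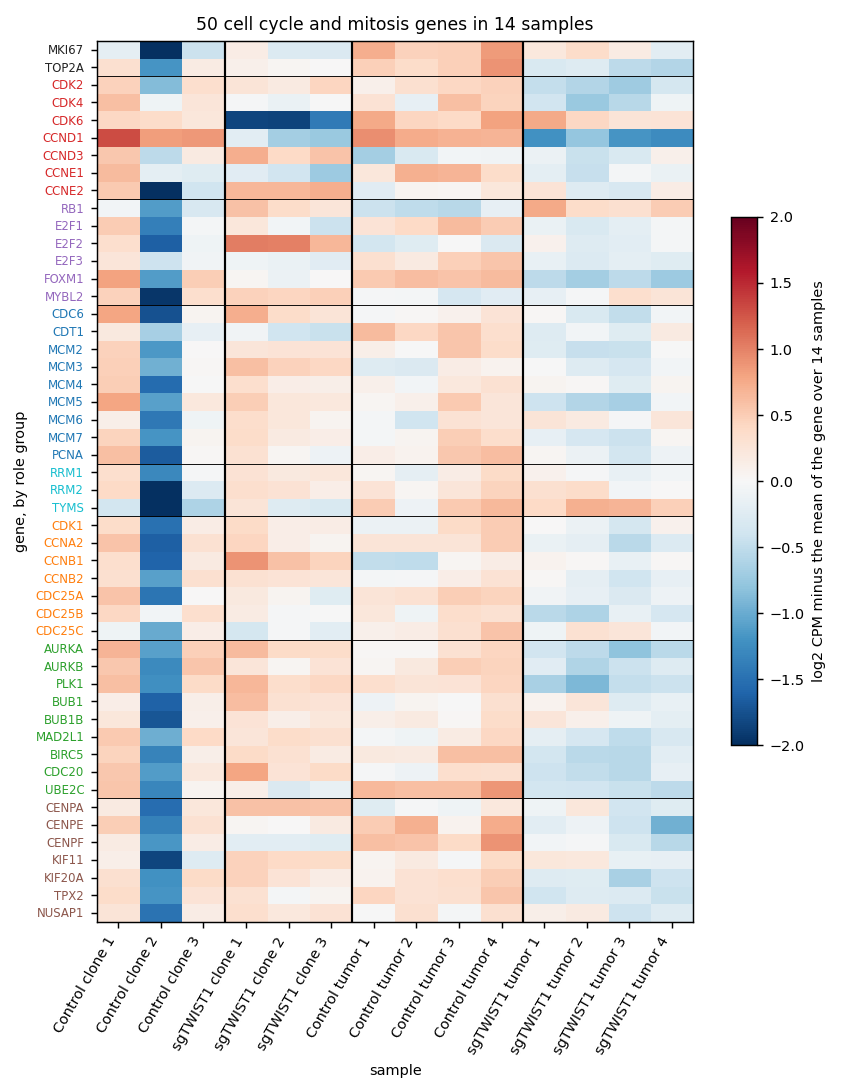
Heatmap of log2 CPM of each of the 50 genes minus its mean over 14 samples, with genes in rows by role group and samples in columns by group. Control clone 2 is blue for most genes, with CDK6 and CCND1 among the exceptions, and the Control tumors are mostly red beside mostly blue sgTWIST1 tumors.

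Control clone 2 stood apart and had to be considered before any comparison with cells. In this clone, 40 of the 50 genes were below 50% of the mean of Control clones 1 and 3, as were 3.86% of all genes tested. The median log2 ratio to the other Control clones was -1.62 over the 50 genes and 0.00 over all genes. The same held in each sequencing batch, with medians of -1.62 in batch 1 and -1.61 in batch 2, and with 40 and 42 genes below 50%. The largest difference of a gene between batches was 0.25 in this log2 ratio. Control clone 2 was the lowest of the 6 clones for 46 genes (27.7% of all genes), while Control clone 1 was the highest of the 3 Control clones for 46 (36.2%).

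The genes lowest in Control clone 2 came from several steps of the cycle. RRM2, a subunit of ribonucleotide reductase, was at 394, 51.8 and 248 CPM in Control clones 1, 2 and 3, which is 6.15-fold lower in clone 2 than the mean of the others. MYBL2 was at 354, 66.9 and 324 CPM (5.04-fold lower). CDC6, which loads the replicative helicase, was at 220, 38.1 and 133 CPM (4.58-fold lower), and CCNE2 was 4.48-fold lower. The mitotic genes were also low in this clone, with PLK1 at 143, 40.4 and 123 CPM and FOXM1 at 284, 74.7 and 229 CPM.

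The 10 genes that stayed above 50% in Control clone 2 were CDK4, CDK6, CCND1, CCND3, CCNE1, RB1, E2F3, CDT1, CDC25B and CDC25C. CDK6 was 1303, 1265 and 1147 CPM in Control clones 1, 2 and 3, a log2 ratio of 0.05 and the only one above 0. CCND1 was 914, 654 and 674 CPM, which placed clone 2 beside clone 3. With this clone included, the median SD of log2 CPM over the 50 genes was 0.96 in Control cells, against 0.23 over all genes. It was 0.15 in sgTWIST1 cells, 0.19 in Control tumors, 0.19 in sgTWIST1 tumors, and 0.19 in Control cells without clone 2. Of 98 further pathway genes tested, 64 were below 50% in Control clone 2. Why this clone was low was not tested.

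**Figure D2:**
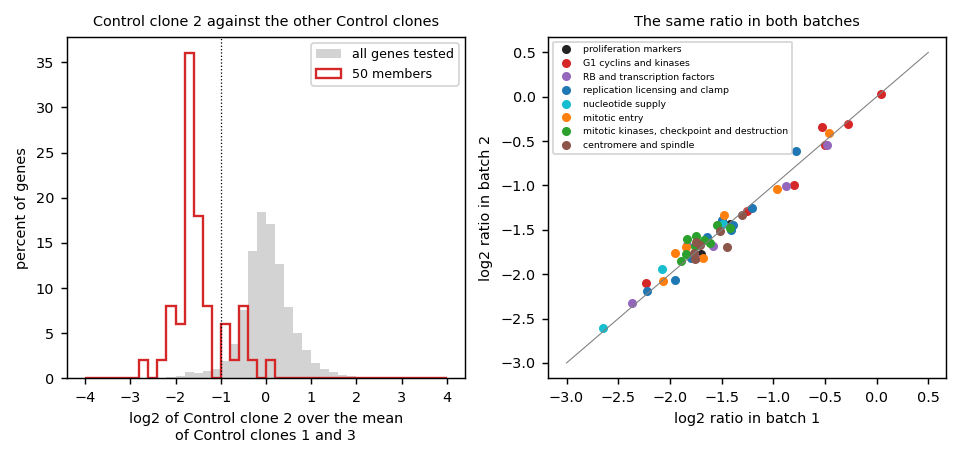
Left, histogram of the log2 ratio of Control clone 2 to the mean of Control clones 1 and 3, in percent of genes, for all genes tested (grey) and the 50 genes (red line), with 50% marked by the dotted line. Right, the same ratio of each of the 50 genes in batch 1 (x) and batch 2 (y), coloured by role group; the points follow the line of equal values.

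In cultured cells, the comparison of Control with sgTWIST1 asks which of these genes moved with TWIST1 outside the animal. CDK6 and CCND1 were higher in Control cells, and RB1 was lower. These 3 genes of 50 passed the test (adjusted p under 0.05), beside 36.9% of all genes. By direction, 2 were higher in Control (19.8% of all genes) and 1 was lower (17.1%). CDK6 and CCND1 were also differentially expressed (DE), which here means passing the test with log2(FC) at or beyond 1 or -1, beside 14.5% of all genes. Log2(FC) is Control relative to sgTWIST1, so positive values are higher in Control. The median log2(FC) over the 50 genes was -0.31, and over all genes 0.00.

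CDK6 (ENSG00000105810, GRCh37 chr7:92234235-92465887, minus strand), a kinase partner of D-type cyclins, was at 1303, 1265 and 1147 CPM in Control clones and at 273, 271 and 366 CPM in sgTWIST1 clones. The lowest Control clone was far above the highest sgTWIST1 clone. Its log2(FC) was 2.03 ± 0.16 (SE), or 4.08-fold (edgeR quasi-likelihood test, adjusted p = 0.000143). CCND1 (ENSG00000110092, chr11:69455924-69469242, plus strand) encodes cyclin D1, which activates CDK4 and CDK6. Its levels were 914, 654 and 674 CPM in Control and 317, 229 and 220 CPM in sgTWIST1 clones, again without overlap. Its log2(FC) was 1.55 ± 0.20 (2.93-fold, edgeR adjusted p = 0.00132). Both genes passed the test under all 14 alternatives tried for cells.

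RB1 (ENSG00000139687, chr13:48877880-49173572, plus strand), which encodes the pocket protein that holds E2F factors inactive, went the other way. It was at 156, 74.7 and 129 CPM in Control and 243, 209 and 192 CPM in sgTWIST1 clones. All Control clones were below all sgTWIST1 clones, with clone 2 the lowest. Its log2(FC) was -0.84 ± 0.26 (edgeR adjusted p = 0.0395). It passed in 10 of 14 alternatives and was lost when Control clone 3 or any single sgTWIST1 clone was left out, with a highest adjusted p of 0.123 without sgTWIST1 clone 1.

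Among the other G1 genes, CDK4, the sister kinase of CDK6, was at 391, 245 and 306 CPM in Control and 255, 237 and 258 CPM in sgTWIST1 clones. The groups overlapped through Control clone 2, and its log2(FC) was 0.33 with a 95% interval from -0.08 to 0.74. CDK2, the partner of cyclins E and A, was at 67.7, 26.8 and 62.1 CPM beside 58.8, 55.5 and 66.3 CPM, a log2(FC) of -0.21 (-0.95 to 0.54). CCNE1 was 0.56 (-0.14 to 1.25), CCNE2 -0.99 (-2.26 to 0.27) and CCND3 -0.44 (-1.04 to 0.16) on the log2(FC) scale. None of these 5 passed the test. E2F2, an activator E2F, was at 74.4, 19.1 and 55.8 CPM in Control and at 121, 119 and 93.7 CPM in sgTWIST1 clones, without overlap. Its log2(FC) of -1.16 had an edgeR adjusted p of 0.0728. With the clone number as a block it was -1.33 and passed (edgeR adjusted p = 0.0498).

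For the genes of replication and mitosis, the cell comparison had wide intervals. E2F1 was at 206, 56.0 and 140 CPM in Control and 170, 138 and 108 CPM in sgTWIST1 clones, with a log2(FC) of -0.05 (-1.04 to 0.95). PCNA was at 397, 82.8 and 266 CPM beside 325, 269 and 244 CPM (-0.17, -1.30 to 0.96), and MCM2, a helicase subunit, at 479, 156 and 351 CPM beside 410, 419 and 421 CPM (-0.34, -1.17 to 0.49). RRM2 had a log2(FC) of -0.63 (-2.03 to 0.76). In each of these 4 genes Control clone 1 lay above and Control clone 2 below all sgTWIST1 clones.

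TOP2A (ENSG00000131747, chr17:38544777-38574148, minus strand) encodes topoisomerase II alpha, which untangles replicated DNA. It was at 1148, 408 and 1035 CPM in Control and 993, 948 and 932 CPM in sgTWIST1 clones, a log2(FC) of -0.15 (-0.96 to 0.66). MKI67, the Ki-67 proliferation marker, was at 644, 179 and 541 CPM beside 811, 606 and 599 CPM (-0.56, -1.56 to 0.43). CDK1, the kinase of mitotic entry, had a log2(FC) of -0.35 (-1.32 to 0.62) and its partner CCNB1 -0.79 (-1.83 to 0.25). For AURKA, PLK1 and CENPF the values were -0.26 (-1.19 to 0.68), -0.36 (-1.33 to 0.60) and 0.06 (-0.70 to 0.81). In all, groups did not overlap for 10 genes, beside 53.2% of all genes. Of these, 2 were higher in Control (27.1% of all genes) and 8 were lower (26.1%).

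In cells, the number of genes that passed and the median log2(FC) depended on Control clone 2. CDK6, CCND1 and RB1 passed with and without this clone. Without it, 12 of 50 genes passed the test in edgeR, beside 44.4% of all genes in the same fit, and the median log2(FC) moved to 0.05. Of the 12, 8 were higher in Control (22.7% of all genes) and 4 lower (21.8%). FOXM1 (log2(FC) 0.67, adjusted p = 0.00305) and CDK4 (0.47, adjusted p = 0.0154) were then higher in Control together with CENPF, CENPE, AURKB and CDC25B, besides CDK6 and CCND1. E2F2 (-0.78), KIF11 and CENPA were then lower, besides RB1. Without Control clone 1 instead, 6 genes passed (38.1% of all genes), 2 higher and 4 lower, and the median log2(FC) was -0.67. With no filter on low counts, 18 genes passed (12.4% of all genes), 2 higher and 16 lower; this setting also moved the median log2(FC) of all genes by -0.17.

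**Figure D3:**
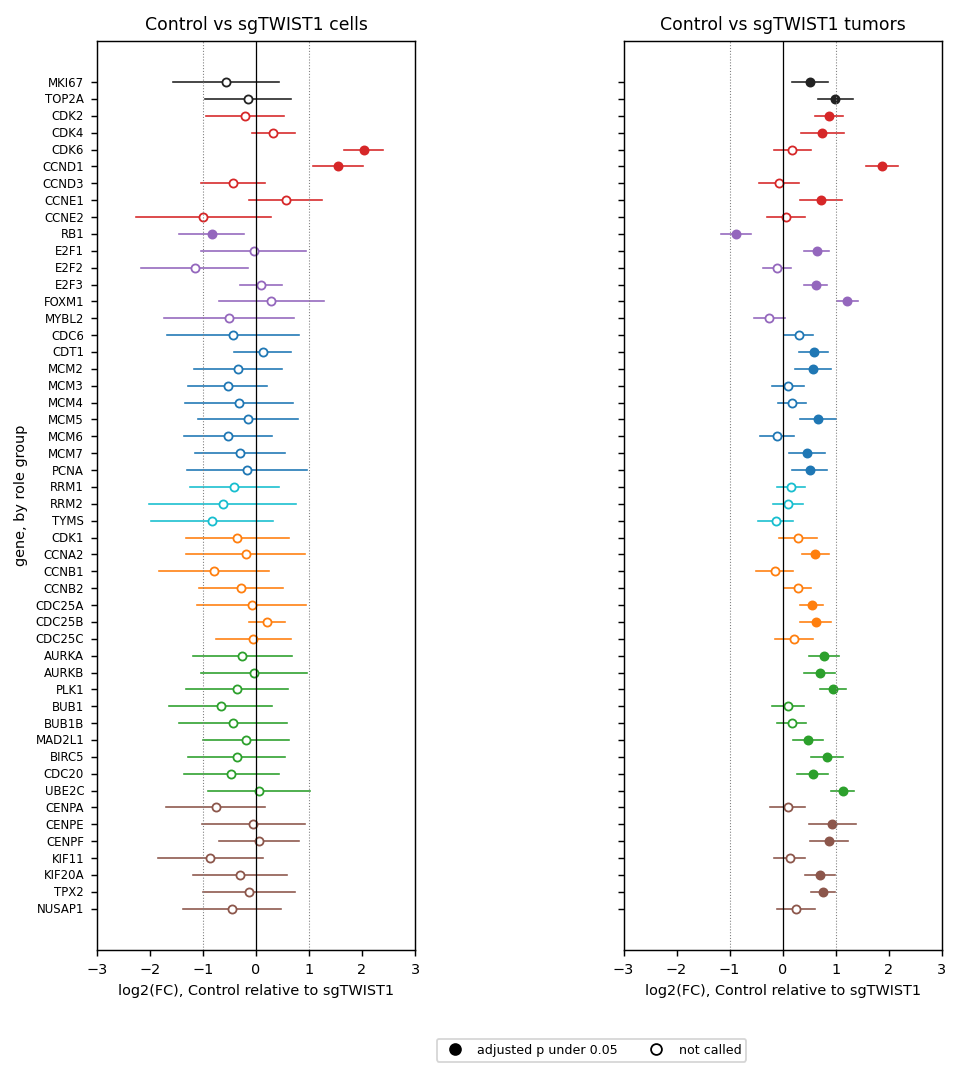
Log2(FC) of each of the 50 genes with its 95% interval in cells (left) and tumors (right), coloured by role group; filled points passed the test and dotted lines mark an absolute log2(FC) of 1. Intervals in cells are wide and cross 0 except for CDK6, CCND1, RB1 and E2F2, whereas 28 genes in tumors lie to the right of 0 with filled points.

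In tumors, the same comparison asks which genes moved with TWIST1 in the adrenal gland. The paper reports delayed growth of sgTWIST1 tumors, and mice were sacrificed at a set tumor volume, so time in the mouse differed too. The editing of TWIST1 and the time in the mouse cannot be told apart here. Most genes of the G1, mitotic kinase and spindle groups were higher in Control tumors, and RB1 was lower. Of the 50 genes, 28 were higher in Control tumors (24.0% of all genes tested) and 1 was lower (23.0%), and 3 were DE (14.3%). Together 29 passed, beside 47.1% of all genes. The median log2(FC) was 0.51 over the 50 genes and 0.00 over all genes. All Control tumors lay above all sgTWIST1 tumors for 26 genes (21.8%) and below them for 1 (22.5%).

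CCND1 had the highest log2(FC) of the 50 genes. It was at 699, 619, 595 and 591 CPM in Control tumors and 159, 215, 163 and 154 CPM in sgTWIST1 tumors. The groups were far apart, with sgTWIST1 tumor 2 the highest of its group. The log2(FC) was 1.87 ± 0.13 (3.66-fold, edgeR adjusted p = 5.1e-06). CDK4 was at 316, 231, 391 and 351 CPM in Control and 199, 155, 177 and 243 CPM in sgTWIST1 ones. Control tumor 2 fell below sgTWIST1 tumor 4, and the log2(FC) was 0.75 ± 0.18 (adjusted p = 0.00608).

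CDK2 (ENSG00000123374, chr12:56360565-56366573, plus strand) was at 52.6, 61.2, 65.3 and 67.5 CPM in Control and 35.4, 32.8, 30.0 and 38.6 CPM in sgTWIST1 ones. There was no overlap, and the log2(FC) was 0.87 ± 0.12 (edgeR adjusted p = 0.000226). CCNE1, which activates CDK2, was 1.65-fold higher in Control tumors. CDK6, in contrast to cells, was at 1653, 1316, 1285 and 1708 CPM in Control and 1658, 1310, 1163 and 1180 CPM in sgTWIST1 tumors. These ranges overlapped and the log2(FC) was 0.18 (-0.17 to 0.54). CCND3 (-0.07, -0.44 to 0.31) and CCNE2 (0.06, -0.29 to 0.42) did not pass the test.

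RB1 was at 121, 114, 110 and 144 CPM in Control and 275, 208, 202 and 230 CPM in sgTWIST1 tumors. Every sgTWIST1 tumor was above every Control tumor. The log2(FC) was -0.89 ± 0.13 (1.85-fold, edgeR adjusted p = 0.000333). Among the transcription factors, FOXM1 (ENSG00000111206, chr12:2966846-2986340, minus strand), which drives mitotic genes, was at 234, 249, 242 and 252 CPM in Control and 113, 102, 113 and 98.1 CPM in sgTWIST1 ones. Both groups were tight and far apart, with a log2(FC) of 1.21 ± 0.09 (2.32-fold, adjusted p = 5.59e-06). E2F1 was at 175, 191, 223 and 205 CPM beside 131, 117, 126 and 141 CPM, a log2(FC) of 0.64 ± 0.10. E2F3 was 1.54-fold higher in Control tumors. E2F2 (-0.11, -0.37 to 0.15) and MYBL2 (-0.25, -0.54 to 0.05) did not pass the test.

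Of the 9 genes of replication licensing and the clamp, 5 were higher in Control tumors (24.0% of all genes) and none lower (23.0%). The group median log2(FC) was 0.46. MCM5, a subunit of the MCM2-7 helicase, had a log2(FC) of 0.67 and CDT1, which loads that helicase, of 0.59. MCM2 was at 378, 347, 513 and 449 CPM in Control and 295, 253, 256 and 344 CPM in sgTWIST1 tumors (0.57 ± 0.15, edgeR adjusted p = 0.0107). PCNA was at 288, 275, 381 and 401 CPM beside 268, 240, 202 and 245 CPM (0.51 ± 0.15, adjusted p = 0.016). MCM7 was 1.37-fold higher, with overlapping groups. CDC6, MCM3, MCM4 and MCM6 did not pass, with log2(FC) from -0.11 for MCM6 to 0.30 for CDC6. Thus the subunits of one helicase ran from -0.11 to 0.67.

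The 3 genes of nucleotide supply did not pass the test. RRM2 was at 363, 309, 352 and 406 CPM in Control and 372, 385, 289 and 303 CPM in sgTWIST1 ones, for a log2(FC) of 0.10 (-0.19 to 0.39). RRM1 had a log2(FC) of 0.16 (-0.11 to 0.42), and TYMS, the thymidylate synthase, of -0.13 (-0.47 to 0.20).

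Of the proliferation markers, TOP2A was at 1287, 1184, 1284 and 1711 CPM in Control and 750, 771, 639 and 617 CPM in sgTWIST1 tumors. The groups were well apart, with a log2(FC) of 0.99 ± 0.15 (1.99-fold, edgeR adjusted p = 0.000399). MKI67 was at 1211, 1007, 1011 and 1316 CPM in Control and 842, 943, 815 and 629 CPM in sgTWIST1 ones, a smaller log2(FC) of 0.51 ± 0.15 (adjusted p = 0.0193). MKI67 passed in 9 of 15 alternatives. It was lost without Control tumor 1 (0.48) or Control tumor 4 (0.43), with filterByExpr, with no filter, with all 4 groups in 1 fit and with the replicate block.

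Of the 7 genes of mitotic entry, 3 were higher in Control tumors (24.0% of all genes). CCNA2, cyclin A2, had a log2(FC) of 0.62, and the CDC25A and CDC25B phosphatases, which activate CDKs, had 0.55 and 0.62. CDK1 was at 126, 126, 179 and 194 CPM in Control and 138, 126, 107 and 146 CPM in sgTWIST1 tumors, with overlap, and a log2(FC) of 0.29 (-0.07 to 0.65). CCNB1 was at 157, 155, 226 and 246 CPM beside 232, 224, 198 and 225 CPM, so that 2 Control tumors lay below, 1 within and 1 above the sgTWIST1 range (-0.15, -0.50 to 0.20). CCNB2 (0.28) and CDC25C (0.21) did not pass either.

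Of the 9 mitotic kinases, checkpoint and destruction genes, 7 were higher in Control tumors (24.0% of all genes) and none lower (23.0%). UBE2C (ENSG00000175063, chr20:44441215-44445596, plus strand), the E2 enzyme of the anaphase-promoting complex, was at 178, 172, 174 and 210 CPM in Control and 88.3, 87.8, 83.7 and 79.0 CPM in sgTWIST1 tumors. The lowest Control tumor was far above the highest sgTWIST1 tumor, and Control tumor 4 was the highest of its group. Its log2(FC) was 1.13 ± 0.10 (2.19-fold, edgeR adjusted p = 1.28e-05). PLK1, which acts from mitotic entry to cytokinesis, was at 119, 113, 114 and 127 CPM beside 60.2, 50.4, 67.4 and 69.9 CPM (0.95 ± 0.11, adjusted p = 0.000101). AURKA, the centrosomal Aurora kinase, was at 97.9, 97.8, 119 and 130 CPM beside 73.6, 66.9, 55.2 and 66.4 CPM (0.78 ± 0.13, adjusted p = 0.000696).

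AURKB and BIRC5, members of the chromosomal passenger complex, were 1.62-fold and 1.78-fold higher in Control tumors, and CDC20, which activates the anaphase-promoting complex, 1.48-fold. MAD2L1, a spindle checkpoint protein, was 1.39-fold higher. Its checkpoint partners BUB1 (0.10, -0.20 to 0.40) and BUB1B (0.17, -0.10 to 0.45) did not pass the test.

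Of the 7 genes of centromere and spindle, 4 were higher in Control tumors (24.0% of all genes). CENPF, a kinetochore protein of G2 and mitosis, was at 1515, 1476, 1298 and 1855 CPM in Control and 961, 973, 805 and 673 CPM in sgTWIST1 tumors, without overlap (log2(FC) 0.87 ± 0.16, edgeR adjusted p = 0.00153). CENPE, a kinetochore motor, had a log2(FC) of 0.93, TPX2, which activates AURKA on the spindle, of 0.76, and KIF20A, a motor of cytokinesis, of 0.70. CENPA, the centromeric histone, had 0.09 (-0.24 to 0.43), KIF11 0.13 (-0.16 to 0.43) and NUSAP1 0.25 (-0.10 to 0.60), and these did not pass.

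The tumor count held when any single tumor was left out, at 26 to 30 of 50 genes. It depended on the filter: 15 genes passed with the filterByExpr filter (17.4% of all genes in that fit) and 5 with no filter on low counts (5.23%), namely CCND1, FOXM1, UBE2C, PLK1 and CENPE. The tumor count also fell to 18 with cells and tumors in 1 fit, which share 1 estimate of the spread, beside 47.0% of all genes. The DE count rose from 3 to 5 without Control tumor 3 and to 5 without sgTWIST1 tumor 2.

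**Figure D4:**
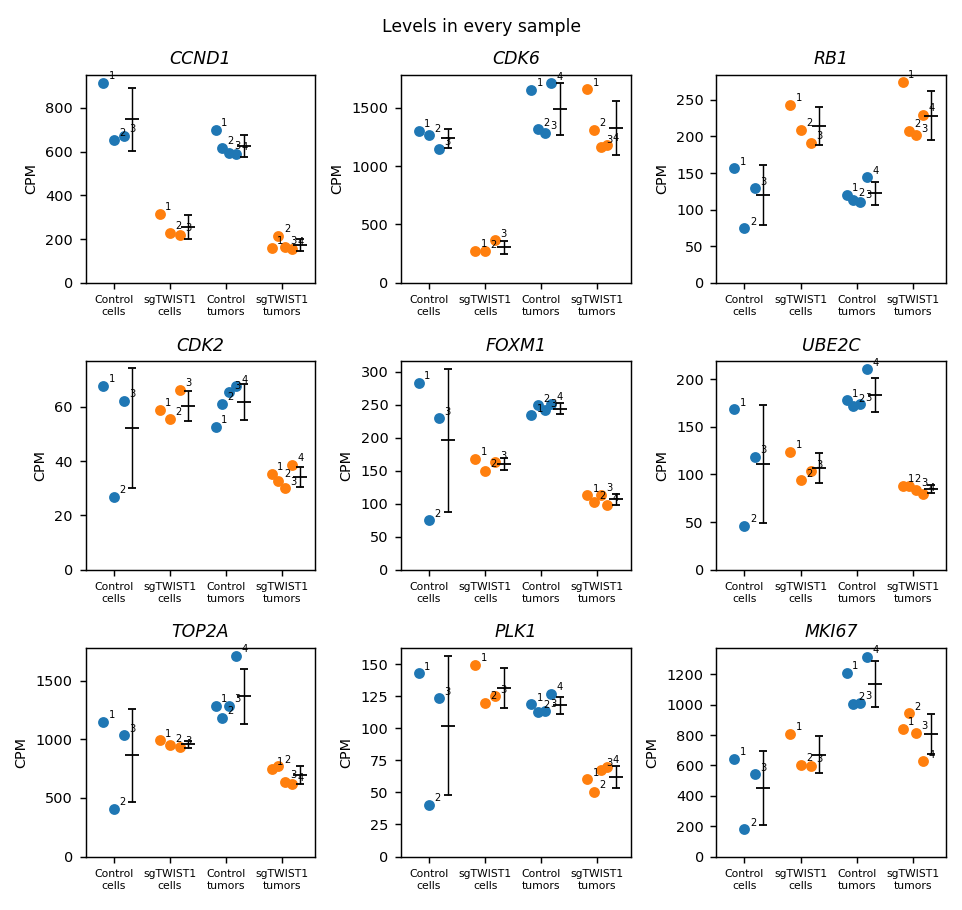
CPM of 9 genes in every sample, with the sample number beside each point and the mean ± SD of each group as a bar; Control is blue and sgTWIST1 orange, and each panel starts at 0. CDK6 is apart only in cells, CCND1 and RB1 are apart in both settings, and CDK2, FOXM1, UBE2C, TOP2A and PLK1 are apart in tumors while Control clone 2 lies low in cells.

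Whether the log2(FC) of Control relative to sgTWIST1 differed between tumors and cells was tested as an interaction over all 14 samples. CDK6 and CDK2 passed. The test called 2 of 50 genes (12.9% of all genes), and at an unadjusted p under 0.05 it called 17 (29.0%). The log2(FC) in tumors exceeded that in cells for 48 of the 50 genes (47.4% of all genes), with a median difference of 0.70.

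For CDK6 the log2(FC) was 1.86 lower in tumors, a difference of -1.86 ± 0.23 (edgeR adjusted p = 0.000155), and it passed in 19 of 20 alternatives. Its CPM values above show that Control cells, Control tumors and sgTWIST1 tumors all lay between 1147 and 1708 CPM, while the sgTWIST1 clones lay at 271 to 366 CPM. For CDK2 the difference was 1.06 ± 0.33 (adjusted p = 0.0473), and it passed in 8 of 20 alternatives. PLK1 (1.29, adjusted p = 0.052) and TOP2A (1.13, adjusted p = 0.0585) came next. For CCND1 (0.31, -0.20 to 0.81) and RB1 (-0.06, -0.67 to 0.54) no difference was detected.

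The interaction count moved with single samples. It was 20 genes without Control clone 1 (20.4% of all genes), 19 of them larger in tumors (8.28%). It was 10 without Control clone 2 (11.0%), 9 of them larger in tumors (4.40%). CDK6 alone remained called without any one of the sgTWIST1 clones, without Control tumor 2, 3 or 4, or without sgTWIST1 tumor 1, 2 or 3. DESeq2 called 6 genes (18.5% of all genes), adding PLK1, TOP2A, BIRC5 and UBE2C. The median difference was 1.06 without Control clone 1 and 0.34 without Control clone 2.

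The remaining contrasts set tumors beside cells of the same genotype. They share the cell samples with the comparisons above, Control clone 2 included, and reads that matched both species had been kept in the human counts. In Control samples, 5 of 50 genes passed (37.7% of all genes), all of them higher in tumors (18.3%), and 2 were DE (11.8%). TYMS was at 50.5, 11.2 and 42.2 CPM in clones and 92.4, 60.6, 93.9 and 101 CPM in tumors, without overlap (log2(FC), tumors relative to cells, 1.33 ± 0.36, edgeR adjusted p = 0.0104). MKI67 had 1.32 ± 0.32 (adjusted p = 0.00527), CENPF 0.80, CDT1 0.66 and E2F3 0.45. UBE2C had 0.73 with an adjusted p of 0.0601. The lowest values were those of CCND3 (-0.39), CCND1 (-0.26), MYBL2 (-0.10), CDC25B (-0.04) and CCNB1 (-0.03), none of which passed. Without Control clone 2, CCND3 (-0.61, edgeR adjusted p = 0.0232) and MYBL2 (-0.53, adjusted p = 0.0105) passed as lower in tumors, and 4 genes remained higher (MKI67, TYMS, CENPF and CDT1), beside 34.2% of all genes. Without Control clone 1 the count was 16 (38.2%), and without Control tumor 4 it was 3 (32.9%). The DE count was 6 without Control clone 1 (13.7% of all genes) and 0 without Control clone 2 (10.9%). The median log2(FC) of 0.31 became -0.04 without Control clone 2.

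In sgTWIST1 samples, 10 of 50 genes differed between tumors and cells (40.5% of all genes). Of these, 1 was higher in tumors (22.7%) and 9 were lower (17.8%), and 4 were DE (12.7%). CDK6 was higher in tumors by a log2(FC) of 2.13 ± 0.18 (4.38-fold, edgeR adjusted p = 1.74e-06). PLK1 was at 150, 120 and 125 CPM in clones and 60.2, 50.4, 67.4 and 69.9 CPM in tumors, without overlap (-1.09 ± 0.29, adjusted p = 0.00825). AURKA (-1.02), E2F2 (-1.01), CDC20 (-0.90) and CDK2 (-0.82) were next, followed by CCND3, MCM3, CCND1 and CDC25B. The other highest values, of TYMS (0.65), CDC25C (0.30), MKI67 (0.26) and CCNE1 (0.23), did not pass. The groups did not overlap for 34 genes that were lower in tumors (24.3% of all genes).

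The sgTWIST1 count also moved with single samples. It was 4 without sgTWIST1 clone 1 (30.0% of all genes). It was 31 without Control clone 2 (46.4%), which is no part of this contrast but shares in the estimate of the spread. The DE count was 1 without sgTWIST1 clone 1 (11.4% of all genes) and 2 without sgTWIST1 tumor 3 (11.6%). With the filterByExpr filter the median log2(FC) of all genes moved by -0.33 and 9 of the genes were DE.

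Of 100 further genes of the same pathways, 98 were tested. In cells 7 were higher (19.8% of all genes tested) and 11 lower (17.1%) in Control. In tumors 38 were higher (24.0%) and 9 lower (23.0%), and the median log2(FC) was -0.33 in cells and 0.22 in tumors. Of the INK4 inhibitors of CDK4 and CDK6, 3 were lower in Control in both settings: CDKN2A (-1.14 in cells, -1.25 in tumors), CDKN2B (-1.60, -1.71) and CDKN2C (-1.18, -1.01). CDKN2A was at 24.5, 27.5 and 21.0 CPM in Control and 48.1, 58.1 and 54.5 CPM in sgTWIST1 clones, and at 20.2, 21.5, 16.1 and 12.2 beside 37.2, 48.8, 31.4 and 51.1 CPM in tumors. Neither setting overlapped (edgeR adjusted p = 0.00122 in cells and 0.000929 in tumors). Of the 10 CDK inhibitors and pocket proteins tested, 1 was higher in Control cells (19.8% of all genes) and 3 were lower (17.1%). In tumors 3 were higher in Control (24.0%) and 3 lower (23.0%). RBL2, another pocket protein, had means of 82.4 CPM in Control and 41.7 CPM in sgTWIST1 cells, and of 71.6 and 43.5 CPM in tumors.

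RFC3, a subunit of the clamp loader, was also lower in Control in both settings (-1.06, -1.01), as was the kinetochore gene SPC24 (-1.76, -0.62). The condensin subunit NCAPD2 (0.92, 1.33), E2F4 (0.94, 1.05) and CKS2 (0.97, 1.05) were higher in Control in both. GINS4, a part of the replicative helicase, passed in tumors at 1.51 and not in cells (0.26), and FBXO5, an inhibitor of the anaphase-promoting complex, passed in tumors at 1.00 and not in cells (0.22). MYCN itself was at -0.24 in cells, which did not pass, and was lower in Control tumors (-0.56, adjusted p = 0.00429).

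Several changed genes lay in chromosome regions whose other genes had a median log2(FC) of the same sign. The median tumor log2(FC) of the other genes tested within 10 Mb was 0.92 for FOXM1 on chromosome 12, 0.64 for MAD2L1 and 0.61 for CCNA2 on chromosome 4, 0.54 for CDT1 on chromosome 16, and -0.51 for RB1 on chromosome 13. On chromosome 20 it was 0.43 for AURKA, 0.41 for E2F1 and 0.39 for UBE2C and TPX2. It was 0.18 for CCND1, 0.15 for PLK1 and -0.03 for TOP2A. Of the 29 genes changed in tumors, 15 had neighbours with a median at least 0.25 from 0 in either direction, as did 22 of all 50. Among the 15, CCNE1 (0.72, neighbours -0.30) and KIF20A (0.70, neighbours -0.25) had neighbours of the opposite sign.

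Taken minus the median of its neighbours, the tumor value was 1.70 for CCND1, 1.02 for TOP2A, 0.79 for PLK1 and 0.74 for UBE2C. It was 0.29 for FOXM1, 0.05 for CDT1, 0.01 for CCNA2, -0.16 for MAD2L1 and -0.37 for RB1. The median of this difference was 0.45 over the 50 genes in tumors, with 41 above 0, and -0.37 in cells, with 10 above 0. In cells CDK6 kept 2.08, CCND1 1.47 and RB1 -0.61 after the same subtraction. The part of gene copy number in these values was not tested.

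**Figure D5:**
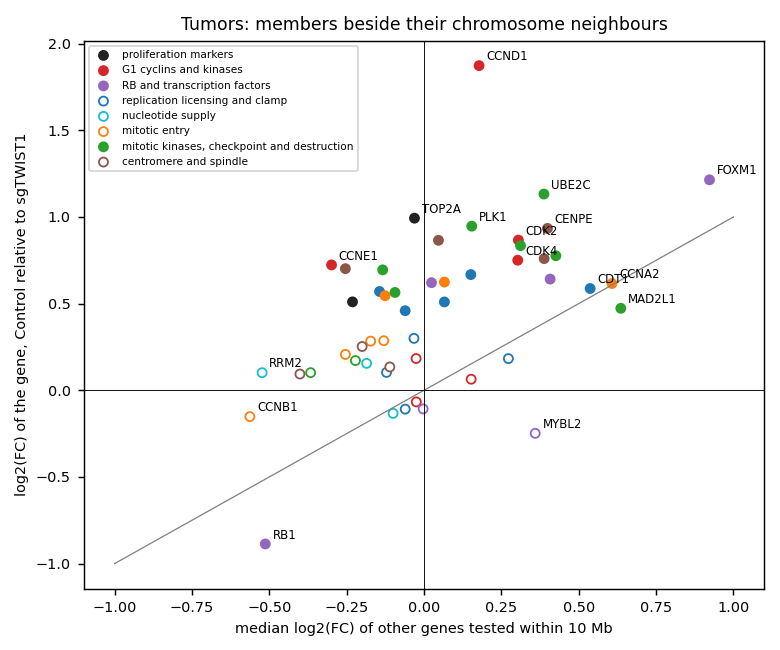
Log2(FC) of each of the 50 genes in tumors (y) against the median log2(FC) of the other genes tested within 10 Mb (x), coloured by role group, filled where the gene passed the test, with the line of equal values. FOXM1, CDT1, CCNA2 and MAD2L1 lie near the line, while CCND1, TOP2A, UBE2C and PLK1 lie above it.

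Murine cells in the tumors express the same genes. Murine counts were 9.75, 2.44, 12.7 and 11.0% of all counts in the Control tumors and 3.77, 4.60, 13.97 and 7.49% in the sgTWIST1 tumors, so these ranges overlapped. All 50 genes had a murine counterpart by symbol. The counterparts took between 0.462% (Control tumor 2) and 4.09% (sgTWIST1 tumor 3) of the summed counts of the 50 genes and their counterparts. Control tumor 2, with the lowest murine share, lay below the mean of the other Control tumors for 42 of the 50 human genes. Its median log2 ratio to them was -0.15. Control tumor 1 lay below the mean of the others for 40 genes, also with a median of -0.15. The 9 murine markers of host cells included Pecam1 and Cdh5 of endothelium and Col1a1 and Pdgfrb of fibroblasts and pericytes. These and the macrophage markers Cd68 and Adgre1 were present in every tumor, with a lowest count of 43 for Adgre1. Pecam1 was at 357 to 650 murine CPM in Control and 480 to 1115 in sgTWIST1 tumors. Star and Cyp11b1 of the adrenal cortex ranged up to 523 and 182 murine CPM in sgTWIST1 tumors, against 18.1 and 1.73 in Control tumors. Their lowest values in sgTWIST1 tumors were 5.75 for Star and 0 for Cyp11b1. Acta1 of muscle had its highest value in Control tumors, with 2.36 to 957 murine CPM there and 0.863 to 11.9 in sgTWIST1 tumors. The part of reads shared between the species in the human values was not tested.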

How the data were processed

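The authors aligned single-end reads of ribosome-depleted RNA libraries with STAR 2.5.2b to hg19 and mm10 at the same time, separated reads by organism, left reads matching both in the human set, and estimated counts per gene with RSEM 1.3.0. The deposited tables hold these expected counts, of which 15.2% of human values were not whole. The strand setting is not given in the sources used here, and exons of 14 of the 50 genes overlap another coding gene, so reads of such pairs may be shared. Expected counts were rounded, and the batches of a clone were summed.

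Protein-coding genes with log2 RPKM above 1 in at least 1 of 19 columns were kept (10889). Groups were compared with edgeR 4.0.16 (R 4.3.3), using TMM factors (0.968 to 1.04) and the quasi-likelihood test, with p-values adjusted by Benjamini-Hochberg across every gene in the fit. Cells and tumors were fitted separately, and all 14 samples together for the interaction and for tumors against cells. The code was tested on simulated data. Alternatives were DESeq2 1.42.0, other filters and scalings, a replicate block, batch 1 alone and leaving out each sample. Per sample, 21426499 to 49990985 human counts were available. In cells, same-numbered Control and sgTWIST1 clones deviated together (r = 0.316, 0.283 and 0.100), the third only just, and same-numbered tumors did not all do so. The values reported come from fits without the replicate block; the block was an alternative.

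The 50 genes and all lists were chosen with earlier results of these data known. Values per sample are given for genes that were DE or passed the interaction test and for fixed anchors of each role, with the highest and lowest genes in tumors against cells. Genes named outside this rule were chosen after their values were seen.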

Additional observations from a re-analysis of the deposited data

Results flagged for a closer look

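Among 19 genes examined in the tumor groups of 4, 2 of 38 groups held a sample apart from the other 3 (Dixon's test), where chance gives about 1 in 20. CCND1 was at 215 CPM in sgTWIST1 tumor 2, above the other sgTWIST1 tumors at 154 to 163 CPM. UBE2C was at 210 CPM in Control tumor 4, while Control tumors 1 to 3 were at 172 to 178 CPM. The log2(FC) of Control relative to sgTWIST1 differed between tumors and cells for 2 genes by the interaction test in edgeR. In tumors, the editing of TWIST1 and the time in the mouse cannot be told apart. For CDK6 the log2(FC) was lower in tumors by a difference of -1.86 (adjusted p = 0.000155), and for CDK2 it was higher by 1.06 (adjusted p = 0.0473), the latter in 8 of 20 alternatives.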

How the results depend on the processing

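Counts out of 50 genes that passed moved as follows, with the share of all genes in the same fit beside them. With no filter on low counts they were 18 in cells (12.4% of all genes) and 5 in tumors (5.23%). Of the 18, 7 were DE (7.95% of all genes). In the same setting they were 0 for the interaction (1.16%) and 0 for Control tumors against cells (4.23%), both with 0 DE. For sgTWIST1 tumors against cells they were 6 (4.96%). With filterByExpr they were 15 in tumors (17.4%) and 2 for Control tumors against cells (12.2%). For the interaction it was 1 (2.44%), also DE (2.42%), and 9 were DE in sgTWIST1 tumors against cells (10.0%). With all 4 groups fitted together they were 5 in cells (40.8% of all genes) and 18 in tumors (47.0%). For the interaction they were 6 with DESeq2 (18.5%), all 6 DE (9.52%). With genes of all types the interaction had 1 (9.61%), also DE (6.58%). Leaving out 1 sample gave 2 to 12 in cells (2 to 5 DE), beside 24.8% without Control clone 3 and 44.4% without Control clone 2. In tumors it gave 26 to 30 (3 to 5 DE), beside 42.4% without Control tumor 4 and 41.2% without sgTWIST1 tumor 1. The interaction had 1 to 20 (1 to 18 DE), beside 8.56% without sgTWIST1 clone 1 and 20.4% without Control clone 1. Control tumors against cells had 3 to 16 (0 to 6 DE), beside 32.9% without Control tumor 4 and 38.2% without Control clone 1. For sgTWIST1 tumors against cells it was 4 to 31 (1 to 4 DE), beside 30.0% without sgTWIST1 clone 1 and 46.4% without Control clone 2. Over the fits that left out 1 sample, DE genes were 13.0 to 16.6% of all genes in cells and 13.9 to 14.7% in tumors. They were 6.12 to 11.2% for the interaction. In tumors against cells they were 10.9 to 13.7% for Control and 11.4 to 13.9% for sgTWIST1. The extremes in cells and the interaction came without Control clone 1 or 2, apart from the lowest counts. The cause was not tested.

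With the replicate block, 4 genes passed in cells (39.1% of all genes), E2F2 being added, and 3 were DE (15.3%). In tumors 27 passed (43.2%), MKI67 and MCM7 being lost, and 3 were DE (14.4%). Tumors of the same number did not deviate together (r from -0.191 to 0.283). Under the block UBE2C and CENPF turned to -0.12 and -0.054 in cells.

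Other log2(FC) values that changed sign were, in cells, UBE2C (-0.067 with filterByExpr, -0.14 with no filter, -0.22 minus neighbours), CENPF (-0.063, -0.13) and FOXM1 (-0.52 minus neighbours). CCNB1 in tumors was 0.41 minus neighbours. In sgTWIST1 tumors against cells, CCNE1 was -0.11 and -0.17, CDC25C -0.046 and -0.11, and MKI67 -0.11 and -0.18 with filterByExpr and no filter. These filters moved the median log2(FC) of all genes in that contrast by -0.33 and -0.39. In cells, from leaving out Control clone 1 to leaving out Control clone 2, values ran from -0.57 to 0.11 for AURKA, -0.67 to 0.027 for CDK1, -0.44 to 0.10 for CDK2, -0.14 to 0.37 for CENPF, -0.50 to 0.31 for E2F1, -0.077 to 0.67 for FOXM1, -0.68 to 0.24 for PCNA, -0.68 to 0.011 for PLK1, -0.41 to 0.18 for TOP2A and -0.38 to 0.42 for UBE2C. In Control tumors against cells, from leaving out Control clone 2 to leaving out Control clone 1, values ran from -0.42 to 0.28 for CCNB1, -0.16 to 0.048 for CDC25B and -0.53 to 0.25 for MYBL2. As a mean of log2 CPM instead of summed RPKM, the difference of the G1 group was 0.32 in place of 0.97 in cells and 0.61 in place of 0.76 in tumors, and that of RB and transcription factors 0.19 in place of 0.16 in tumors. Of 998 values of single named genes under the alternatives, 890 kept their direction and side of the threshold, 38 changed sign, 47 lost and 14 gained a call, and 9 with no test moved by more than the spread.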
